A study of Mus musculus with 9 samples.

Results

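Imprinted genes are used only or mainly from the maternal or the paternal chromosome, some of them only in certain tissues. Here 45 such mouse genes were followed in sorted endothelium of the fetal heart. The set was defined from a list of known imprinted genes and was chosen with earlier results of these same libraries in view, so that the counts of changed members below describe the set and are not independent evidence about imprinting. Of the 45 genes, 43 matched a row among the 41214 features of the count table, and 36 of them were among the 17103 genes with enough counts to test. They were taken apart by the parental copy that is known to be active where the gene is imprinted, which need not hold in these cells. There were 18 maternally expressed genes (18 matched, 14 tested), 26 paternally expressed genes (24 matched, 21 tested), and Gnas, whose locus makes transcripts of both kinds. Snrpn and Peg13 had no row under their gene identifiers and were not analysed here. The counts do not tell the parental copies apart, so that a level here is the sum of both alleles.

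All 9 libraries came from ventricles of mouse embryos at E17.5 that carried the reporter transgene Nes-Gfp (Tg/0), the inducible recombinase Nes-CreER (Tg/0) and the reporter allele R26 (tom/+), after a dose of 0.1 ug of tamoxifen at E15.5. All groups thus share the 2 Nes-driven transgenes, the tomato reporter allele and the tamoxifen, and the strain is not given in the sources used here. Each of 3 populations was sorted in 3 replicates from viable cells negative for Ter119 and CD45 and positive for CD31, the endothelial surface antigen. The arterial population, enriched for arteries and capillaries of the heart wall, was GFP-positive, low in endomucin and Tomato-positive. The venous population, enriched for subepicardial veins, was GFP-low, low in endomucin and Tomato-negative. The endocardial population was taken as GFP-positive, and its gate as written sets no condition on endomucin or Tomato. Endothelial cells of other kinds could therefore be among them. The arterial and venous libraries together are called coronary. The labels do not say how many embryos were pooled or whether the replicates came from separate animals, so that a p-value speaks of how these libraries vary, and that variation may be technical.

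Many imprinted genes set growth before birth. Paternally expressed genes such as Igf2, Plagl1, Mest and Dlk1 are known for favouring fetal or placental growth, and maternally expressed genes such as H19, Igf2r, Cdkn1c and Grb10 for restraining it. The genes lie in clusters in which a stretch of DNA that is methylated on 1 parental chromosome sets which copy is used, often through a long non-coding RNA or through the insulator protein CTCF. The zinc finger protein ZFP57 holds that methylation after fertilisation and recognises a methylated CG within a short hexamer. In the heart, Igf2 from the endocardium and the epicardium is known as a signal to the growing ventricular wall.

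Libraries held 12750553 to 19474419 counts, and levels are in CPM, counts scaled to library size with TMM factors. Endothelial markers summed to 5455 to 7391 CPM in arterial, 5222 to 6632 CPM in venous and 4092 to 5286 CPM in endocardial libraries, and none of the 9 was at 0 in a population. Endocardial replicate 1 had 21101 features above 0 against 17337 and 17130 in the other 2 endocardial libraries. Without it, all 17 calls of the endocardial comparison given below remained and 19 members were called. In bulk libraries, fewer cells of a type and less RNA per cell cannot be told apart.

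Sequences of 2 kinds are shown because the results turn on their genes. H19, the most abundant member, is the host RNA of miR-675, and both mature arms of this microRNA lie inside an H19 exon on the minus strand of chromosome 7 (GRCm38.p6, sequences from RefSeq). They are given 5′ to 3′ with the seed, bases 2 to 8, in capitals, at chr7:142577112-142577133 for the 5p arm and chr7:142577078-142577099 for the 3p arm. The seeds differ between the arms. Reads of H19 here stand for the host RNA, and the mature microRNAs were not measured.
mmu-miR-675-5p: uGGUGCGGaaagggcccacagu
mmu-miR-675-3p: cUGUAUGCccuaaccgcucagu

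Plagl1 and Mest are both paternally expressed and moved in opposite directions between the populations, and Igf2r is a maternally expressed gene that moved with Plagl1. For these 3 genes the 250 bases before an annotated start in RefSeq (GRCm38.p6, the start with the most CG where there are several) are printed on the coding strand. The capitals mark the hexamer TGCCGC, the letters that ZFP57 recognises when their CG is methylated, or the same hexamer read on the other strand, GCGGCA. The windows are chr10:13090582-13090831 for Plagl1 (plus strand), chr6:30737800-30738049 for Mest (plus strand) and chr17:12769707-12769956 for Igf2r (minus strand).
Plagl1: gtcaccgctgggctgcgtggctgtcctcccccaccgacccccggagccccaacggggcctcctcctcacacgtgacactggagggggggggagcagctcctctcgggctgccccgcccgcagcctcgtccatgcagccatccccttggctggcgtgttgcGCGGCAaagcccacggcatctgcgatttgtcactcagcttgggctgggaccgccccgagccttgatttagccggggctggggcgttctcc
Mest: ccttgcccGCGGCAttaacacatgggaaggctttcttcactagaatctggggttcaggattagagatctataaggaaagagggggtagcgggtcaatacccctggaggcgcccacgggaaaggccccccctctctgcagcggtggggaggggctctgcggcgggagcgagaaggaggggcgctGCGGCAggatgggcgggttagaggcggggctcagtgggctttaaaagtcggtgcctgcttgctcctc
Igf2r: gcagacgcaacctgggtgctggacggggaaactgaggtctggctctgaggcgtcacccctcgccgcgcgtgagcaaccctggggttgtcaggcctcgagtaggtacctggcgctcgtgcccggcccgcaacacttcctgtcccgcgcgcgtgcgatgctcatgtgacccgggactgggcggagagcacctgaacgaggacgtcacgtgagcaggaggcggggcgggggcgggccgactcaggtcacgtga

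The Plagl1 window held 1 hexamer, 90 bases before the start, and 19 CG dinucleotides. The Mest window held 2 hexamers, 242 and 67 bases before the start, and 14 CG dinucleotides. The Igf2r window held 27 CG dinucleotides and none of the hexamer letters, which says only that they are not in this window. Over the whole RefSeq table of 300-base windows (250 bases before to 50 after a start), either strand of the hexamer was found in 3813 of 32851 windows (11.6%). Of 55 windows of 36 listed genes, 13 held it (23.6%), and the median number of CG was 15 against 7 over all windows. These genes are not the same as the 36 tested members: Snrpn and Ascl2 have windows, while H19 and Cdkn1c have none. The hexamer itself holds a CG, so the shares compare windows that differ in CG. Several genes have more than 1 window, some of which overlap. The match is a description of letters, and methylation was not measured.

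The first comparison set the endocardial libraries against the mean of the arterial and venous ones. Of the 36 members tested, 13 were higher and 4 lower in endocardial libraries, against 6.91% of all tested genes higher and 7% lower (13.9% called in all) at a Benjamini-Hochberg adjusted p under 0.05 in edgeR's quasi-likelihood test. Among the maternally expressed genes 4 of 14 were higher (H19, Igf2r, Cdkn1c and H13) and 2 lower (Grb10 and Asb4). The paternally expressed genes had 9 of 21 higher (Igf2, Airn, Plagl1, Slc38a4, Dlk1, Peg3, Nnat, Zdbf2 and Ndn) and 1 lower (Mest). Gnas was lower. The median log2 fold change was 0.52 for the maternally and 0.67 for the paternally expressed genes, against 0.08 over all genes tested.

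**Figure D1:**
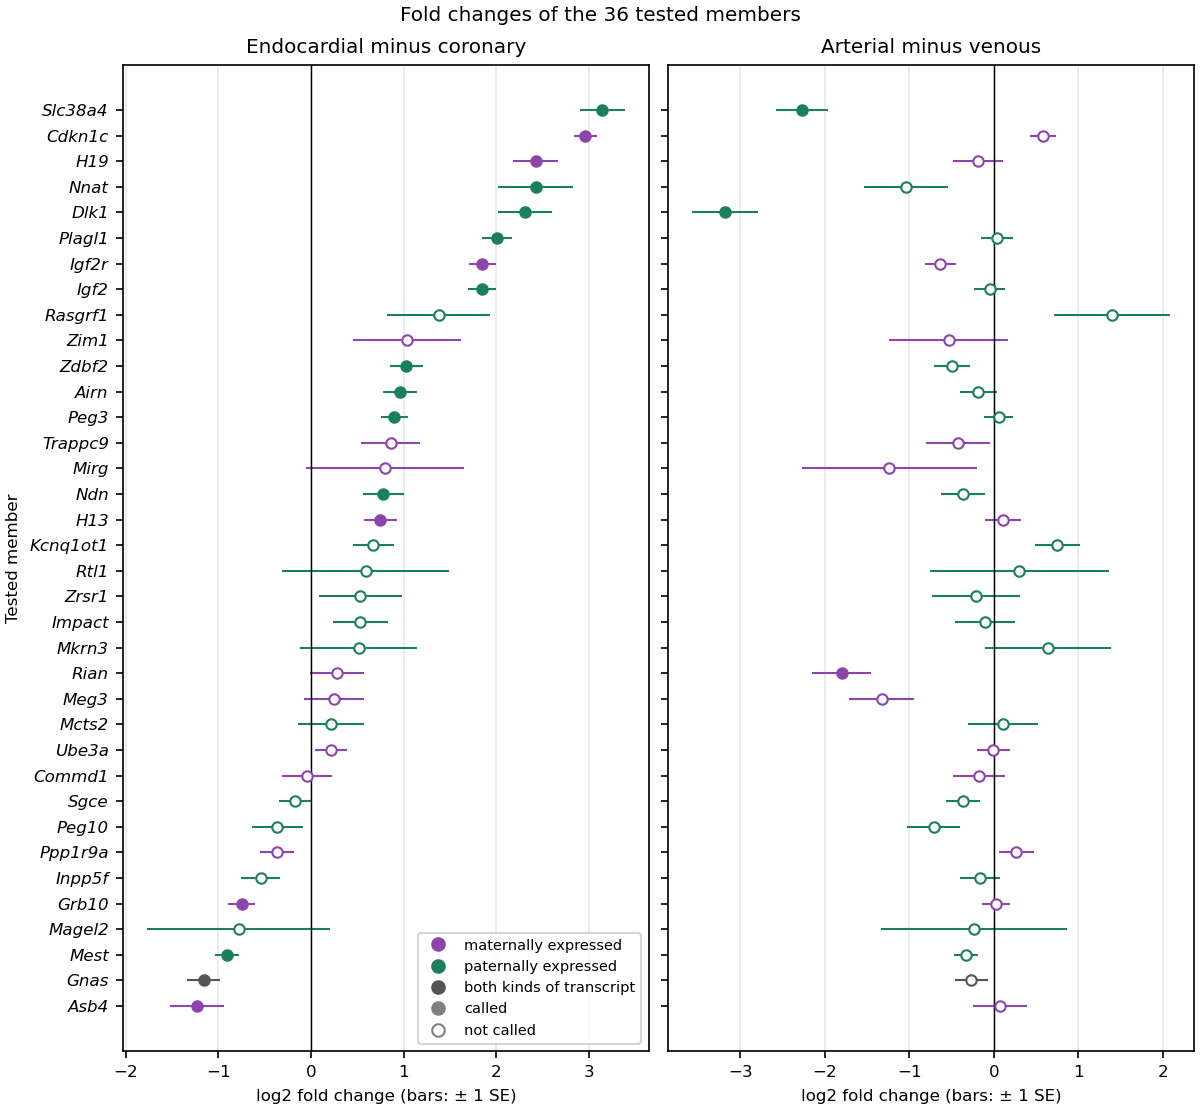
Log2 fold change of the 36 tested imprinted genes (points, with bars of 1 SE) for endocardial minus coronary libraries on the left and arterial minus venous libraries on the right, with filled points for adjusted p under 0.05. On the left 13 genes lie filled above 0 and 4 below, from Slc38a4 at 3.14 to Asb4 at -1.23, and on the right 3 genes are filled, all below 0.

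Together the 43 matched genes took 2.05% to 2.18% of all counts in arterial libraries and 2.23% to 2.40% in venous libraries. In endocardial replicates 1, 2 and 3 they took 4.53%, 7.77% and 6.05%. Every endocardial library was thus above every coronary one, and H19 alone accounted for 1.81%, 4.47% and 2.68% of the counts there. Igf2 took 1.02%, 1.47% and 1.58% in the same libraries.

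**Figure D2:**
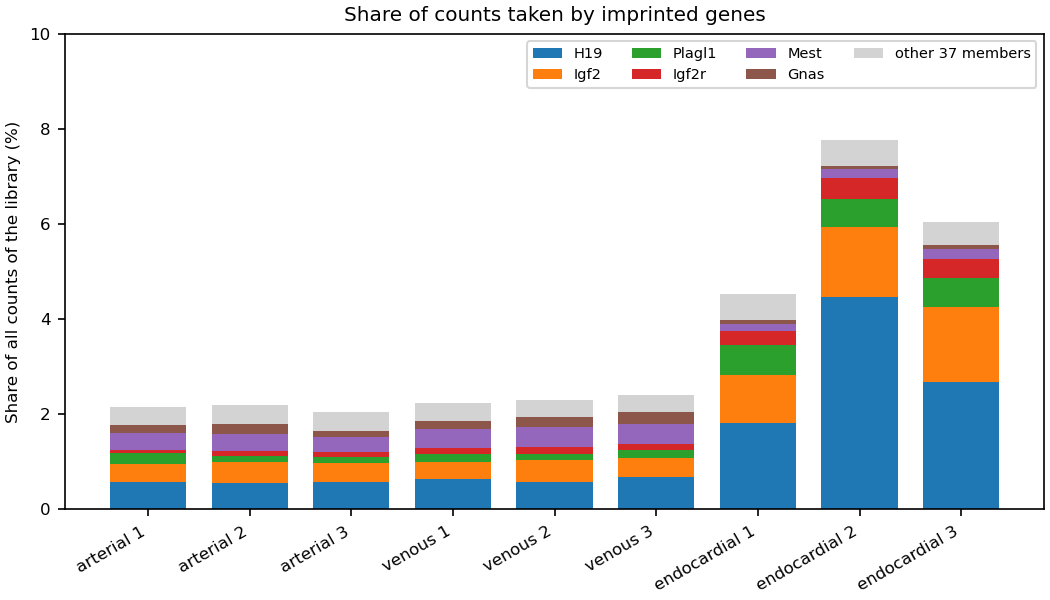
Share of all counts of each library, in percent, taken by 6 named imprinted genes and by the other 37 matched genes. The 3 endocardial bars reach 4.53% to 7.77%, above the 6 coronary bars at 2.05% to 2.40%, and H19 and Igf2 make up most of the difference in height.

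H19 and Igf2 are neighbours on chromosome 7 that are used from opposite parental copies and share enhancers. H19 (chr7:142575529-142578143, minus strand), a maternally expressed long non-coding RNA, had 5574, 5399 and 5560 CPM in arterial replicates 1 to 3. Venous libraries had 6470, 5685 and 6698 CPM, and endocardial libraries 17610, 48000 and 28980 CPM. All endocardial libraries lay far above the coronary ones, and they also differed widely among themselves while the coronary libraries lay close together. The log2 fold change of H19 in endocardial against coronary libraries was 2.42 ± 0.25 (SE, adjusted p = 0.000146). Endocardial replicate 2, the highest in H19, was also the highest endocardial library in Xist, at 2800 CPM against 1008 and 1226, and the lowest in the Y-linked gene Ddx3y, at 34.6 CPM against 121 and 116. Replicate 2 was likewise the highest in Xist of the arterial (1828 CPM) and of the venous libraries (1994 CPM). It was also the lowest of each in Ddx3y (59.9 and 31.7 CPM). In both coronary populations, however, replicate 2 was the lowest in H19, at 5399 and 5685 CPM. The part of embryo sex in the level of H19 was not tested.

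Igf2 (chr7:142650766-142666816, minus strand), the paternally expressed fetal growth factor, had 3703, 4053 and 3996 CPM in arterial and 3400, 4746 and 4015 CPM in venous libraries. Endocardial libraries had 9930, 15820 and 17060 CPM. The coronary populations overlapped, and every endocardial library lay above them. Igf2 was higher in endocardial than in coronary libraries by a log2 fold change of 1.84 ± 0.15 (adjusted p = 3.19e-07). The paternally expressed ligand and the maternally expressed RNA of this domain were thus both higher in the same libraries. Per kilobase of exon, H19 stood at 12820 and Igf2 at 2493 CPM per kb in endocardial libraries, against 2240 and 684 in arterial libraries.

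Igf2r binds IGF2 at the cell surface and carries it to lysosomes, and it lies on chromosome 17 across from Airn, the paternally expressed antisense RNA that silences it on the same chromosome. Igf2r (chr17:12682406-12769664, minus strand) had 745, 957 and 915 CPM in arterial and 1273, 1440 and 1345 CPM in venous libraries. In endocardial libraries it had 2705, 4661 and 4372 CPM. The 3 populations did not overlap, with arterial lowest and endocardial highest. Its log2 fold change was 1.85 ± 0.15 in endocardial against coronary libraries (adjusted p = 1.94e-07). In arterial against venous libraries it was -0.63 ± 0.18 and not called (adjusted p = 0.167), but it was called when the replicate number was used as a block (adjusted p = 0.019, range 0.00294 to 0.475 over all alternatives). It was called as well without endocardial replicate 1 (0.0183) and without the filter on low counts (0.00294).

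Airn (chr17:12741311-12860136, plus strand) had 40.7, 52.9 and 41.8 CPM in arterial, 55.0, 51.9 and 47.2 CPM in venous and 76.2, 124 and 79.5 CPM in endocardial libraries. Its endocardial libraries all lay above the coronary ones, by a log2 fold change of 0.96 ± 0.18 (adjusted p = 0.00149). Airn and Igf2r overlap on opposite strands. Whether the counting used strand is not given in the sources used here, so that reads of the RNA pair may not be told apart.

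The domain next to H19 and Igf2 is set by Kcnq1ot1, a paternally expressed antisense RNA within Kcnq1. Cdkn1c (chr7:143458339-143461050, minus strand), a maternally expressed inhibitor of cyclin-dependent kinases that holds cells out of the cycle, had 227, 206 and 208 CPM in arterial and 145, 156 and 127 CPM in venous libraries. Endocardial libraries had 1171, 1568 and 1336 CPM. No population overlapped another, and endocardial libraries stood highest by a wide margin. Its log2 fold change in endocardial against coronary libraries was 2.96 ± 0.13 (adjusted p = 1.53e-10). Cdkn1c was not called between arterial and venous libraries (log2 0.58 ± 0.15, adjusted p = 0.11), though DESeq2 called it (adjusted p = 0.00663, range 0.00663 to 0.545 over all alternatives).

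Kcnq1ot1 (chr7:143203458-143296549, minus strand) had 616, 630 and 860 CPM in arterial, 542, 371 and 339 CPM in venous and 1191, 822 and 576 CPM in endocardial libraries. Arterial and endocardial libraries overlapped, and both lay above all venous ones. Only venous against endocardial libraries gave a call among the 4 comparisons (log2 -1.05 ± 0.26, adjusted p = 0.0254, range 2.37e-07 to 0.129 over all alternatives). That call was lost without arterial replicate 1 (adjusted p = 0.0645), venous replicate 2 (0.0757) or venous replicate 3 (0.129). In arterial against venous libraries the value was 0.75 ± 0.26 (adjusted p = 0.396, range 0.00197 to 0.941), called only without the filter on low counts (0.00197). Against all coronary libraries the endocardial value was 0.67 ± 0.22 (adjusted p = 0.0687). It was called there without arterial replicate 3 (0.0431), endocardial replicate 3 (0.00715) or venous replicate 1 (0.0189), by DESeq2 (0.0186) and without the filter on low counts (0.000228), in a range up to 0.268. The annotation counts 93092 bases as exon for Kcnq1ot1, and Kcnq1 runs over it on the other strand, so that reads of unspliced Kcnq1 RNA may not be told apart from it. The other maternally expressed genes of the domain were almost silent. Phlda2, a placental growth regulator, and Ascl2, a trophoblast transcription factor, had 1 count each over all 9 libraries, and the transporter gene Slc22a18 had 67.

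The Dlk1 to Dio3 domain on chromosome 12 holds paternally expressed protein genes and maternally expressed non-coding RNAs. Dlk1 (chr12:109452823-109463336, plus strand), a membrane protein related to the Notch ligands that holds back differentiation, had 5.01, 6.62 and 5.29 CPM in arterial libraries. Venous libraries had 29.6, 69.5 and 54.5 CPM and endocardial libraries 44.4, 114 and 94.3 CPM. Arterial libraries lay below all others, while venous and endocardial libraries overlapped. Dlk1 was lower in arterial than in venous libraries by a log2 fold change of -3.18 ± 0.39 (adjusted p = 0.00101), and lower than in endocardial ones by -3.90 ± 0.40 (adjusted p = 2.12e-05). Venous and endocardial libraries did not differ at the threshold (log2 -0.72 ± 0.35, adjusted p = 0.263), but they did with the replicate block (adjusted p = 0.0438) and without endocardial replicate 1 (0.0263, range 0.0263 to 0.608 over all alternatives). Against the mean of both coronary populations, the endocardial value was 2.31 ± 0.30 (adjusted p = 0.000128).

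Among the non-coding RNAs of the domain, Rian (chr12:109603940-109661716, plus strand), the host of small nucleolar RNAs, had 15.9, 11.2 and 21.9 CPM in arterial libraries. It had 72.4, 49.7 and 48.5 CPM in venous and 55.2, 35.0 and 20.9 CPM in endocardial libraries. Venous libraries lay above all arterial ones, and endocardial libraries spread across both. Rian was lower in arterial than in venous libraries (log2 -1.80 ± 0.35, adjusted p = 0.0187, range 1.19e-08 to 0.0851 over all alternatives), a call lost without arterial replicate 1 (0.0851) or venous replicate 1 (0.0546). It was also lower in arterial than in endocardial libraries (log2 -1.18 ± 0.34, adjusted p = 0.0361, range 0.000471 to 0.123). This second call was lost without arterial replicate 1 (0.122), arterial replicate 2 (0.108), endocardial replicate 1 (0.123) or endocardial replicate 2 (0.0579), and in a fit of those 2 populations alone (0.0795).

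Meg3, the first RNA of the same maternal transcript region, had 20.9, 7.14 and 10.2 CPM in arterial and 37.7, 25.8 and 32.4 CPM in venous libraries. These did not overlap, and the log2 fold change of -1.33 ± 0.38 was not called (adjusted p = 0.171, range 0.00239 to 0.481 over all alternatives). It was called with the replicate block (0.0114), without arterial replicate 1 (0.0111) and without the filter (0.00239). Meg3 was also called lower in arterial than in endocardial libraries with the block (adjusted p = 0.0274 against 0.161, range 0.0122 to 0.413) and without arterial replicate 1 (0.0122). Mirg, a host of microRNAs, and Rtl1, a retrotransposon-derived gene, were below 5 CPM in every library and in no call. Dio3, a deiodinase that inactivates thyroid hormone, had 45 counts in all and was not tested.

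Against the venous libraries, the arterial ones were lower in 3 of the 36 members tested, Dlk1, Rian and Slc38a4, and higher in 0. Over all genes 1.07% were called in this comparison (0.31% higher and 0.76% lower). DESeq2 called 4 members, of which 1 (Cdkn1c) was higher. With the replicate block 6 were called, all lower: the same 3 with Igf2r, Meg3 and Peg10. The shares of all genes called by DESeq2 and with the block were not counted, so these counts have no background beside them.

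Slc38a4 (chr15:96994820-97055956, minus strand), a paternally expressed amino acid transporter best known from placenta and liver, had 3.98, 3.00 and 1.99 CPM in arterial and 17.51, 13.3 and 12.6 CPM in venous libraries. Endocardial libraries had 61.0, 48.0 and 65.5 CPM. The 3 populations formed separate steps with no overlap. Slc38a4 was lower in arterial than in venous libraries by -2.27 ± 0.31 (log2, adjusted p = 0.00067) and higher in endocardial than in coronary libraries by 3.14 ± 0.24 (adjusted p = 1.02e-07). It was the member with the largest log2 fold change of the endocardial comparison.

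The summed fibroblast markers had their lowest mean in arterial libraries, as did Dlk1, Rian and Slc38a4. The highest mean of the sum was endocardial, like those of Dlk1 and Slc38a4, whereas that of Rian was venous. The 13 markers summed to 192 to 226 CPM in arterial, 1628 to 1910 CPM in venous and 2012 to 2805 CPM in endocardial libraries. In arterial against venous libraries 8 of 13 were lower (0.76% of all genes tested). In endocardial against coronary libraries 9 of 13 were higher (6.91% of all genes tested). None of the 13 was at 0 in a population, and the endocardium is known to express some of them, such as Postn. Between venous and endocardial libraries, 3 of 13 (Col1a1, Col3a1 and Dpt) were higher and 6 lower in venous ones (5.81% and 4.44% of all genes tested). Among the 36 tested members, 15 had means that rose from arterial through venous to endocardial libraries, the order of the summed markers: Airn, Dlk1, H19, Igf2, Igf2r, Impact, Mirg, Ndn, Nnat, Slc38a4, Trappc9, Ube3a, Zdbf2, Zim1 and Zrsr1. That order held for 20.8% of all genes tested and for only 7 of the 13 fibroblast markers. The means of the summed cardiomyocyte markers rose in the same order. For some of the 15 the first step was small, and the arterial and venous libraries of Ube3a and Igf2 overlapped. The part of fibroblast RNA in the levels of the imprinted genes was not tested.

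**Figure D3:**
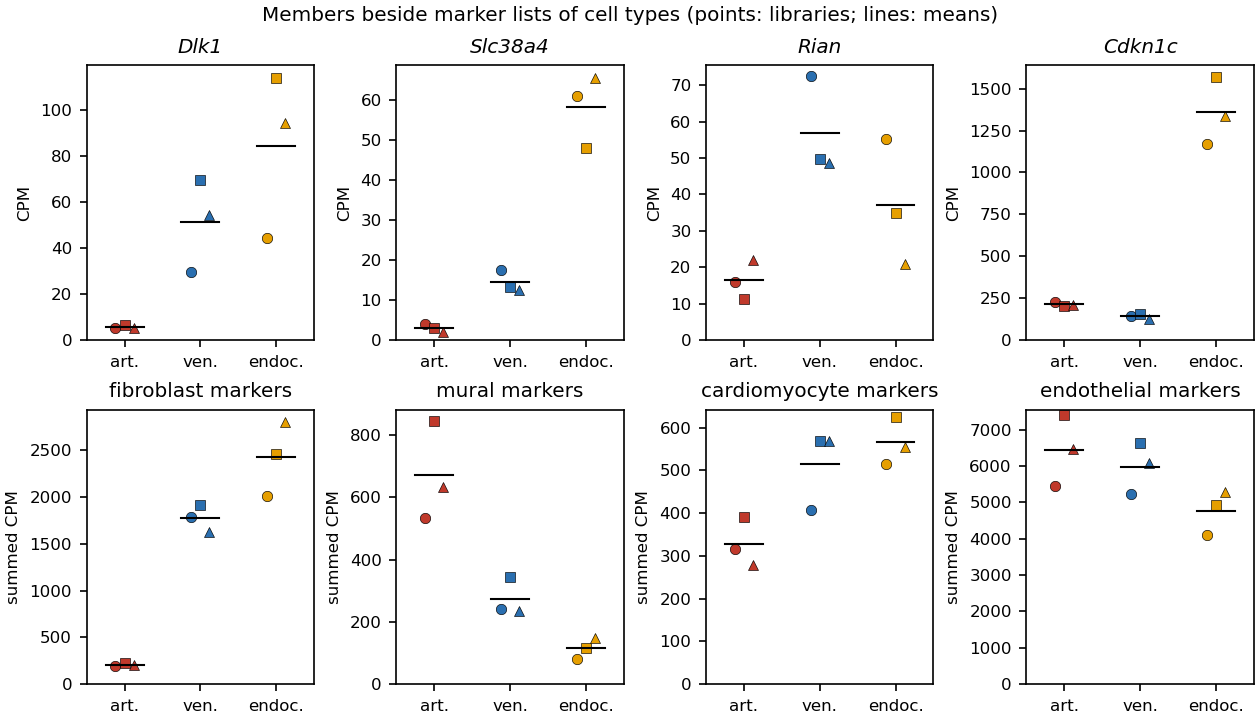
Levels of Dlk1, Slc38a4, Rian and Cdkn1c (CPM, upper row) and summed levels of fibroblast, mural, cardiomyocyte and endothelial marker lists (summed CPM, lower row) in arterial (red), venous (blue) and endocardial (orange) libraries, with circles, squares and triangles for replicates 1, 2 and 3 and lines for means. Dlk1 and the fibroblast list are lowest in the 3 arterial libraries, while Cdkn1c is high in the 3 endocardial libraries only.

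Sums of other cell type markers differed between the populations as well. Mural markers summed to 535 to 844 CPM in arterial, 235 to 344 CPM in venous and 81.8 to 150 CPM in endocardial libraries, with none of 10 at 0. Abcc9 made up most of the arterial and venous sums (means of 517 and 201 CPM). Of the 10, 3 were lower and 1 (Pdgfrb) higher in endocardial than in coronary libraries (7% and 6.91% of all genes tested). Pdgfrb had means of 14.8, 9.40 and 40.8 CPM in arterial, venous and endocardial libraries. Cardiomyocyte markers summed to 279 to 390, 408 to 570 and 516 to 625 CPM in the same order, with Nppa, 1 of 12, at 0 in endocardial libraries. Of 11 tested, 3 were higher and 0 lower in endocardial than in coronary libraries (6.91% and 7% of all genes tested). Epicardial markers summed lower in endocardial libraries (26.5 to 35.8 CPM against 157 to 213), a sum made mostly of Wt1, whose endocardial mean was 20.1 CPM against an arterial mean of 189 CPM and a venous one of 147 CPM. Wt1 was the single one called of 7 tested in the endocardial against coronary comparison, in which 13.9% of all genes tested were called. Leukocyte markers summed to 31.6 to 41.1 CPM in endocardial libraries against 59.3 to 94.5 CPM, mostly Mrc1 (means of 27.8 CPM in endocardial, 57.3 in arterial and 77.6 in venous libraries). Mrc1 was again the single one called of 5 tested, beside the same 13.9% of all genes. Of the 9 leukocyte markers 1 was at 0 in all arterial libraries (Tyrobp), 1 in all venous (C1qa) and 3 in all endocardial ones (C1qa, Tyrobp and Fcer1g). Erythroid markers summed to 538 to 1212 CPM in arterial, 227 to 380 CPM in venous and 68.6 to 241 CPM in endocardial libraries. Of 6 tested, 0 were higher and 1 lower in endocardial than in coronary libraries (6.91% and 7% of all genes tested). The part of these cells in the results of the imprinted genes was not tested.

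Plagl1 and Mest are paternally expressed genes that sit alone rather than in large clusters. Plagl1 (chr10:13060504-13131694, plus strand), a zinc finger transcription factor known to act on other imprinted genes, among them Igf2, H19 and Cdkn1c, had 2208, 1288 and 1297 CPM in arterial and 1685, 1299 and 1700 CPM in venous libraries. Endocardial libraries had 6183, 6324 and 6511 CPM. Coronary populations overlapped, and the endocardial libraries lay close together far above them. The log2 fold change was 2.01 ± 0.16 (adjusted p = 2.59e-07).

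Mest (chr6:30723547-30748465, plus strand), which encodes an enzyme of the hydrolase fold, went the other way. It had 3277, 3457 and 3073 CPM in arterial, 4073, 4154 and 4127 CPM in venous and 1591, 1988 and 2282 CPM in endocardial libraries. The populations did not overlap, with endocardial libraries lowest. Mest was lower in endocardial than in coronary libraries by -0.91 ± 0.13 (log2, adjusted p = 8.34e-05), the only paternally expressed member called in that direction. Per kilobase of exon, Mest stood at 829 CPM per kb in arterial and 495 in endocardial libraries, whereas Plagl1 stood at 204 and 811.

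Grb10, Asb4 and Gnas were the other members lower in endocardial libraries. Grb10 (chr11:11930508-12038683, minus strand), an adaptor protein that dampens insulin and IGF receptor signalling, had 1016, 1101 and 1210 CPM in arterial and 1017, 1205 and 1052 CPM in venous libraries. It had 493, 753 and 720 CPM in endocardial libraries, all below the coronary ones. The log2 fold change was -0.75 ± 0.15 (adjusted p = 0.002). Grb10 is known to switch to the paternal copy in neurons, and in most other tissues the maternal copy is used.

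Asb4 (chr6:5383386-5433022, plus strand), a subunit of ubiquitin ligases known from vascular development, had 122, 71.4 and 75.7 CPM in arterial, 120, 67.3 and 70.0 CPM in venous and 54.9, 26.2 and 31.1 CPM in endocardial libraries. Replicate 1 was the highest of each population, and every endocardial library lay below every coronary one. Asb4 was lower in endocardial libraries by -1.23 ± 0.30 (log2, adjusted p = 0.0134, range 3.19e-08 to 0.0761 over all alternatives), a call lost without endocardial replicate 3 (0.0761).

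Gnas (chr2:174284320-174346744, plus strand), whose locus encodes the stimulatory G protein subunit along with transcripts used from 1 parental copy, had 1793, 1999 and 1302 CPM in arterial and 1537, 2096 and 2490 CPM in venous libraries. Endocardial libraries had 733, 817 and 953 CPM, below all others. The log2 fold change was -1.16 ± 0.18 (adjusted p = 0.00019). The row sums all transcripts of the locus, and the antisense RNA Nespas overlaps it.

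Peg3 (chr7:6703892-6730431, minus strand), a paternally expressed zinc finger protein linked to growth and maternal behaviour, had 568, 936 and 679 CPM in arterial, 633, 713 and 749 CPM in venous and 1234, 1416 and 1339 CPM in endocardial libraries. Endocardial libraries lay above all others, by a log2 fold change of 0.90 ± 0.14 (adjusted p = 0.0003). Its neighbours were low. Usp29, which starts next to Peg3 on the other strand, had 42 counts in all, and the maternally expressed Zim1 had 0.811 to 8.87 CPM and no call (adjusted p = 0.309 for endocardial against coronary).

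Zdbf2, Nnat, Ndn and H13 were higher in endocardial libraries at lower levels. Zdbf2 (chr1:63273265-63314576, plus strand), a paternally expressed gene linked to body weight after birth, had 33.0, 21.8 and 27.3 CPM in arterial, 43.1, 33.9 and 38.3 CPM in venous and 71.1, 65.3 and 62.0 CPM in endocardial libraries. The populations formed ordered steps with no overlap, and the endocardial log2 fold change was 1.03 ± 0.18 (adjusted p = 0.000692). Nnat (chr2:157560078-157562522, plus strand), a small membrane protein that lies within an intron of Blcap, had 1.92, 1.38 and 2.21 CPM in arterial, 4.14, 5.00 and 2.15 CPM in venous and 13.9, 15.1 and 13.3 CPM in endocardial libraries. The endocardial libraries agree closely and lie above all coronary ones (log2 2.42 ± 0.40, adjusted p = 0.000415). Blcap and Nnat run on opposite strands, so that their reads may not be told apart.

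Ndn (chr7:62346569-62350262, plus strand), a paternally expressed growth suppressor of the Prader-Willi region, had 14.96, 16.8 and 16.4 CPM in arterial, 18.2, 21.4 and 22.3 CPM in venous and 24.4, 36.6 and 32.7 CPM in endocardial libraries. The steps between populations were small but without overlap (endocardial log2 0.78 ± 0.22, adjusted p = 0.0249, range 0.00547 to 0.183 over all alternatives). The call was lost without endocardial replicate 2 (0.183), endocardial replicate 3 (0.097), venous replicate 1 (0.0752), venous replicate 2 (0.0622) or venous replicate 3 (0.0587). In the same region Magel2 and Mkrn3 stayed below 8 CPM and in no call. Ube3a, a ubiquitin ligase whose maternal expression is known mainly from neurons, had 206, 153 and 176 CPM in arterial, 191, 140 and 206 CPM in venous and 247, 210 and 166 CPM in endocardial libraries. Its populations overlapped, and no comparison called it (endocardial adjusted p = 0.504).

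H13 (chr2:152669461-152708670, plus strand), which encodes signal peptide peptidase and holds the paternally expressed Mcts2 inside it on the same strand, had 41.3, 60.2 and 50.7 CPM in arterial, 55.8, 44.2 and 41.2 CPM in venous and 69.1, 86.0 and 91.3 CPM in endocardial libraries. Endocardial libraries lay above the others (log2 0.75 ± 0.18, adjusted p = 0.00799, range 0.00129 to 0.0595 over all alternatives), a call lost without endocardial replicate 2 (0.0523) or endocardial replicate 3 (0.0595). Mcts2 had 5.23 to 15.2 CPM and was in no call (endocardial adjusted p = 0.791).

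**Figure D4:**
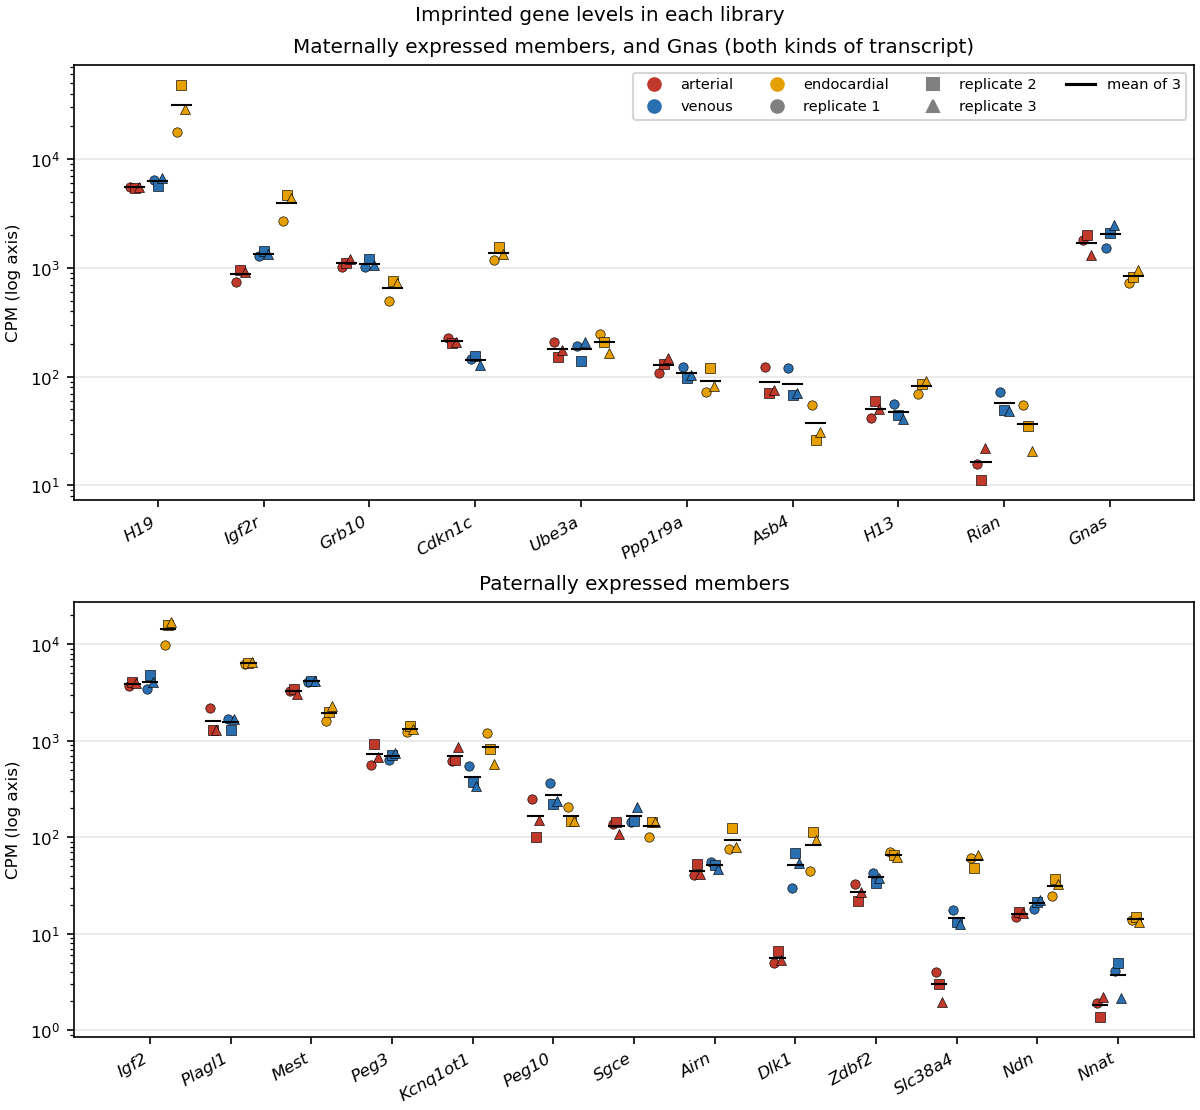
Level of 23 imprinted genes in each library (CPM, log axis), with maternally expressed genes and Gnas above and paternally expressed genes below. Red, blue and orange points stand for arterial, venous and endocardial libraries, circles, squares and triangles for replicates 1, 2 and 3, and black lines for means of 3. H19, Igf2, Plagl1, Igf2r and Cdkn1c have all orange points above the others, and Mest, Gnas, Grb10 and Asb4 have them below.

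The Peg10 domain on chromosome 6 held members on both sides of the test. Peg10 (chr6:4747306-4760517, plus strand), a retrotransposon-derived gene needed in placenta, had 249, 101 and 153 CPM in arterial, 364, 220 and 239 CPM in venous and 204, 148 and 148 CPM in endocardial libraries. Venous libraries lay above all endocardial ones, and arterial libraries overlapped both. It was called in no comparison, with log2 -0.71 ± 0.31 in arterial against venous libraries (adjusted p = 0.577) and 0.72 ± 0.31 in venous against endocardial libraries (adjusted p = 0.207). With the replicate block both were called (adjusted p = 0.0291 and 0.00956, in ranges of 0.0114 to 0.945 and 0.00176 to 0.469 over all alternatives). Arterial against venous was also called without arterial replicate 1 (0.0479) and without the filter (0.0114), and venous against endocardial without arterial replicate 1 (0.0474), in a fit of those populations alone (0.0495) and without the filter (0.00176).

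Its neighbour Sgce, the epsilon-sarcoglycan that shares a promoter region with Peg10, had 136, 143 and 109 CPM in arterial, 144, 149 and 206 CPM in venous and 102, 142 and 146 CPM in endocardial libraries. No comparison called it, and arterial and endocardial libraries overlapped. Ppp1r9a, a scaffold protein that binds actin, had 107, 132 and 149 CPM in arterial, 123, 96.5 and 103 CPM in venous and 72.7, 120 and 81.7 CPM in endocardial libraries. It too overlapped between populations and was in no call (endocardial adjusted p = 0.239), though it was in arterial against endocardial libraries without endocardial replicate 2 (adjusted p = 0.0431 against 0.164, range 0.0431 to 0.423).

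The other tested members were in no call. Trappc9, a subunit of a vesicle tethering complex, had 7.21 to 27.8 CPM, and its endocardial against coronary log2 fold change of 0.86 ± 0.32 (adjusted p = 0.0906, range 0.0301 to 0.381 over all alternatives) was called with the replicate block (0.0408) and without endocardial replicate 1 (0.0301). Its arterial against endocardial value (adjusted p = 0.0894, range 0.0284 to 0.326) was likewise called with the block (0.0385) and without that library (0.0284). Rasgrf1, a Ras activator, had 1.17 to 16.0 CPM, and in venous against endocardial libraries (adjusted p = 0.0736, range 0.0252 to 0.334) it was called with the block (0.0424), by DESeq2 (0.0252), without endocardial replicate 3 (0.029) and without the filter (0.0493). Inpp5f, a phosphoinositide phosphatase, had 27.4, 20.6 and 18.7 CPM in endocardial libraries, below the 28.1 to 35.9 CPM of the coronary ones, with adjusted p = 0.109 (range 0.0494 to 0.325) and a call only without endocardial replicate 1 (0.0494). Commd1 (adjusted p = 0.953), Zrsr1 (0.538) and Impact (0.309) overlapped between endocardial and coronary libraries, and Commd1 and Zrsr1 overlap each other on opposite strands. Nap1l5 with 32 counts and Kcnk9 with 10 counts over all libraries were not tested.

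Each coronary population was also set against the endocardial libraries, which both comparisons share. Of 36 members, 4 stood higher and 14 lower in the arterial libraries than in the endocardial ones (5.92% and 5.75% of all genes, 11.7% in all). In venous against endocardial libraries 4 were higher and 12 lower (5.81% and 4.44% of all genes, 10.2% in all). The 4 higher in each were Grb10, Asb4, Mest and Gnas, of which Asb4 was called less firmly. In arterial against endocardial libraries its adjusted p of 0.0237 (range 5.82e-07 to 0.108) rose above the threshold without arterial replicate 1 (0.0825), endocardial replicate 2 (0.0612) or endocardial replicate 3 (0.108). In venous against endocardial libraries that of 0.036 (range 2.15e-06 to 0.131) did so without endocardial replicate 2 (0.0794), endocardial replicate 3 (0.131) or venous replicate 1 (0.108). Rian, Dlk1 and Ndn were among the 14 but not the 12, and Kcnq1ot1 among the 12 but not the 14. The median log2 fold change of the maternally expressed genes was -0.99 in arterial and -0.20 in venous against endocardial libraries, against 0.01 and -0.10 over all genes. For the paternally expressed genes it was -0.64 and -0.74.

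Genes of the pathways around the members were read from the same fit. Of 16 tested genes of IGF2 signalling, 5 were higher and 2 lower in endocardial than in coronary libraries (43.8%, against 13.9% of all genes tested). Igfbp5, a binding protein of the insulin-like growth factors, stood at 3516 ± 713 CPM in endocardial libraries against 193 ± 20.7 in arterial and 432 ± 43.7 in venous ones (SD, n = 3, log2 3.61 ± 0.14, adjusted p = 5.39e-11). Igf1, Igfbp4, the insulin receptor gene Insr and the adaptor gene Irs2 were the others higher. Irs2 (adjusted p = 0.0164, range 5.17e-09 to 0.0798) lost its call without endocardial replicate 2 (0.0661), endocardial replicate 3 (0.0559) or venous replicate 1 (0.0569), 2 (0.0749) or 3 (0.0798). The binding proteins Igfbp3 (log2 -2.17 ± 0.19, adjusted p = 4.65e-07) and Igfbp7 (log2 -2.66 ± 0.30, adjusted p = 2.79e-05) were lower. Between arterial and venous libraries Igfbp3 was higher (log2 1.14 ± 0.20, adjusted p = 0.00622) and Igf1 (-1.51 ± 0.24, adjusted p = 0.00361) and Igfbp5 (-1.16 ± 0.17, adjusted p = 0.00108) lower in arterial ones, and the other 13 were not called. The median log2 fold change of the list was 0.26 in the endocardial and 0.18 in the arterial comparison, against 0.08 and 0.03 over all genes.

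Of 15 tested factors linked to methylation imprints, among them the Tet genes, 3 were higher and 3 lower in endocardial than in coronary libraries. The called share was 40%, against 13.9% of all genes tested. The DNA methyltransferase gene Dnmt3a was higher (173 ± 39.8 CPM in endocardial, 72.1 ± 8.34 in arterial and 64.7 ± 0.933 in venous libraries, SD, n = 3, log2 1.34 ± 0.16, adjusted p = 1.54e-05). Tet1 (log2 1.59 ± 0.20, adjusted p = 2.35e-05) and Tet2 (0.67 ± 0.15, adjusted p = 0.00576), whose enzymes oxidise methylcytosine, were higher too. Dnmt1, the maintenance methyltransferase (log2 -0.55 ± 0.15, adjusted p = 0.0177), its partner Uhrf1 (-0.85 ± 0.22, adjusted p = 0.0159) and Dnmt3b (-0.91 ± 0.28, adjusted p = 0.0365) were lower. Several of these calls hung on single libraries, and without endocardial replicate 3 the count fell from 6 to 3. Tet2 (range 0.000311 to 0.0583 over all alternatives) was lost without endocardial replicate 2 (0.0583) or 3 (0.052), and Dnmt1 (range 0.00162 to 0.081) without endocardial replicate 1 (0.081). Uhrf1 (range 0.00067 to 0.0624) was lost without endocardial replicate 1 (0.0624) or 3 (0.0512). Dnmt3b (range 0.00946 to 0.165) was lost without any of 7 libraries, at 0.0605 to 0.165, and kept only without arterial replicate 1 or endocardial replicate 1. In arterial against venous libraries edgeR and DESeq2 called 0 of 15 (1.07% of all genes tested were called in edgeR). The list's median was 0.05 in the endocardial and -0.13 in the arterial comparison.

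A list of genes mostly from beside the imprinted clusters was read for comparison. Many of them are not imprinted in most tissues, but some are imprinted themselves, and a few, such as Dcn, lie elsewhere. Of 34 tested, 2 were higher (Osbpl5 and Dcn) and 2 lower (Pon3 and Adam23) in endocardial than in coronary libraries, with a median log2 fold change of 0.19. The called share was 11.8%, against 13.9% of all genes tested. Dcn is also in the fibroblast list, and its call (adjusted p = 0.0246, range 3.5e-06 to 0.11) was lost with the replicate block (0.0843), without the filter (0.0614) and without any of 7 libraries, at 0.0665 to 0.11. It was kept without arterial replicate 2 or 3. Arterial against venous libraries gave 0 calls of 34 in edgeR (1.07% of all genes tested), with a median of -0.05, and 2 (Dcn and Tfpi2) in DESeq2. Leaving out arterial replicate 3 or endocardial replicate 1 gave 1 call each in edgeR.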

How the data were processed

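The authors deposited 1 table of expected counts per gene for all 9 libraries. Per the submitters' processing notes it was made with CASAVA 1.8.2, cutadapt 1.3 and RSEM 1.2.3 on GRCm38. Aligner and strandedness: not given in the sources used here. RNA was amplified from 1 ng per library and sequenced as single reads, per the labels' protocols. Values were rounded to whole counts (45.5% of those above 0 were not whole). The test was the robust quasi-likelihood F test of edgeR 4.0.16 (R 4.3.3), after TMM scaling and a minimum count of 10, in 1 fit of all 9 libraries, with Benjamini-Hochberg adjustment over 17103 genes and a threshold of 0.05. The common dispersion was 0.409. An SE is the log2 fold change over the root of F. Coordinates and exon lengths came from GENCODE release M21.

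The members and all lists were chosen with earlier results of these data known. Values in every library are given for members called in any comparison or among the 15 highest tested. Alternatives were RLE scaling, DESeq2 1.42.0, no filter, a replicate block, a fit of the compared populations alone, and leaving out each library. The labels give a batch number equal to the replicate number, from which the pairing comes. Deviations from population means correlated at 0.083 to 0.165 between libraries of number 1, 0.0364 to 0.146 of number 2 and -0.0902 to 0.0924 of number 3. A batch has a single library of each population, too few for a test within it. The code of the fit was run on simulated counts of lower dispersion than the data. That run therefore does not give error rates or power for these libraries.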

Additional observations from a re-analysis of the deposited data

How the results depend on the processing

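The count of members called between arterial and venous libraries rose from 3 to 7 without the filter on low counts and to 6 with the replicate block, and the original 3 remained in both. The share of all genes called under the alternatives was not counted, so a rise may be common to all genes. The other counts of members called stayed within 1.5 times of those reported. Of the counts over the other gene lists given above, 3 moved further: imprint factors in endocardial against coronary libraries, and in arterial against venous libraries the list of genes mostly beside the clusters (0 to 2 calls, with 2 without the filter and 1 from fitting only the populations compared) and the IGF2 signalling genes (from 3 to 5 without the filter). Leaving out 1 library gave 2 to 4 calls for arterial against venous, 15 to 19 for endocardial against coronary, 15 to 18 for arterial against endocardial and 11 to 17 for venous against endocardial libraries. Of 54 calls of named members over the 4 comparisons, 40 held under every alternative run and 14 were lost in at least 1, with no called value changing sign. The losses in arterial against endocardial libraries concerned Rian, Asb4, H13 and Ndn, and those in venous against endocardial libraries Asb4, H13, Airn, Kcnq1ot1, Nnat and Zdbf2. The replicate block changed 9 calls of tested members and that of Dcn, all given above, and changed no other call of the genes named. RLE and DESeq2 scaling moved the median log2 fold change of all genes by at most 0.032 in size. Counting depth limits the untested members and the low tested ones, such as Mirg, Rtl1, Zim1, Magel2, Nnat and Slc38a4.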
